A study of Danio rerio with 4 samples.

Results

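Complement and coagulation are the protease cascades of blood plasma, and their transcripts were followed here in injured zebrafish ventricles with and without ccn2a. The genes were chosen from a list of 40 symbols that spans both cascades, by an exact match to the symbol in the deposited table and a mean normalised count of 10 or more over the 4 libraries. Of the 40 symbols, 27 had a row in the table, in 28 rows because c6 has 2 Ensembl genes. The 13 symbols without an exact match were c1r, mbl2, masp2, c3b.1, c4b, cfb, c8a, c8b, c9, cfhl3, cfi, f9b and proca. A mean of 10 was reached by 17 rows of 16 symbols, out of 16730 genes that reached it and 19875 in the table, and 11 rows stayed below it. The gene with the lowest mean above that level was c7b at 83.75, and the highest means below it were 9 for f7, 8 for fga and 7.5 for masp1.

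In complement, recognition of a surface by C1 or by lectins activates serine proteases that cleave C4, C3 and C5, and the terminal components C6 to C9 then assemble into a membrane pore. Coagulation starts when tissue factor meets factor VII. It runs through factors X and V to thrombin, which turns fibrinogen into fibrin, and factor XIII crosslinks the clot. In vertebrates the liver makes most of the circulating proteins of both cascades, while endothelium, macrophages and fibroblasts make some of them locally. These roles are best described in mammals.

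The ventricles came from Danio rerio 4 days after injury, written 4 dpci in the sample titles, with the atrium and bulbus arteriosus removed. There were 2 libraries from ccn2a-/- fish and 2 from wild-type fish, made with a stranded poly(A) kit, and no uninjured ventricle enters the comparison. The labels give neither the ccn2a allele nor the age of the fish, and they do not say whether a library was 1 heart or a pool. The p-values thus rest on the spread between the libraries as deposited, and that spread may be purely technical. The ccn2a transcript (ctgfa in the table) was at 3070 and 1473 in mutants 1 and 2 and at 4737 and 4411 in wild types 1 and 2.

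Values are normalised read counts, that is, reads per gene that the authors divided by a library factor and rounded. Approximate depth was between 17.2 and 21.5 M reads per library. Cardiomyocyte genes were read as a check for heart muscle, and of these myl7 lay between 139544 and 362054 in every library. No atrial marker was read, so the ventricular label itself was not checked. The most similar pair of libraries was mutant 2 and wild type 1, which crosses the genotypes (Pearson r across genes of 0.970, where genes are not independent replicates). Genotypes were compared with limma on log2(value + 1), a scale that understates the change of low genes, and p-values were adjusted over all 16730 genes. With that adjustment 0 genes passed 0.05, or 0.0% of those tested, and the same held for the 17 rows described here, whose smallest adjusted p was 0.381. Without adjustment, 2145 genes (12.8% of those tested) had a p under 0.05, and 2444 did so with limma voom, which also passed 0 genes after adjustment. Fold changes below are log2 values of mutant over wild type with their standard error (SE), and none passed the adjusted threshold.

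The 17 rows did not move as 1 block. The fitted change was above 0 at 9 rows and below 0 at 8, with a median log2 fold change of 0.09, beside 6.28e-05 over all genes tested. An unadjusted p under 0.05 was reached by 2 rows on the higher side, or 11.8%, where 5.89% of all genes did so, and by 4 rows on the lower side, or 23.5%, where 6.93% did so. The higher ones were the 2 c6 genes, and the lower ones were c3a.1, c7b, the tissue factor gene f3a and the factor XIII gene f13a1b. The list was chosen with earlier results of these data known, so the shares describe it and do not test it. The genotypes did not overlap at 10 of the 17 rows, or 58.8%, close to the 52.3% of all genes. At 6 of those rows, or 35.3% of the 17, both mutants lay above both wild types, where 26.6% of all genes did so. At 4, or 23.5%, both lay below, where 25.7% of all genes did so.

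**Figure D1:**
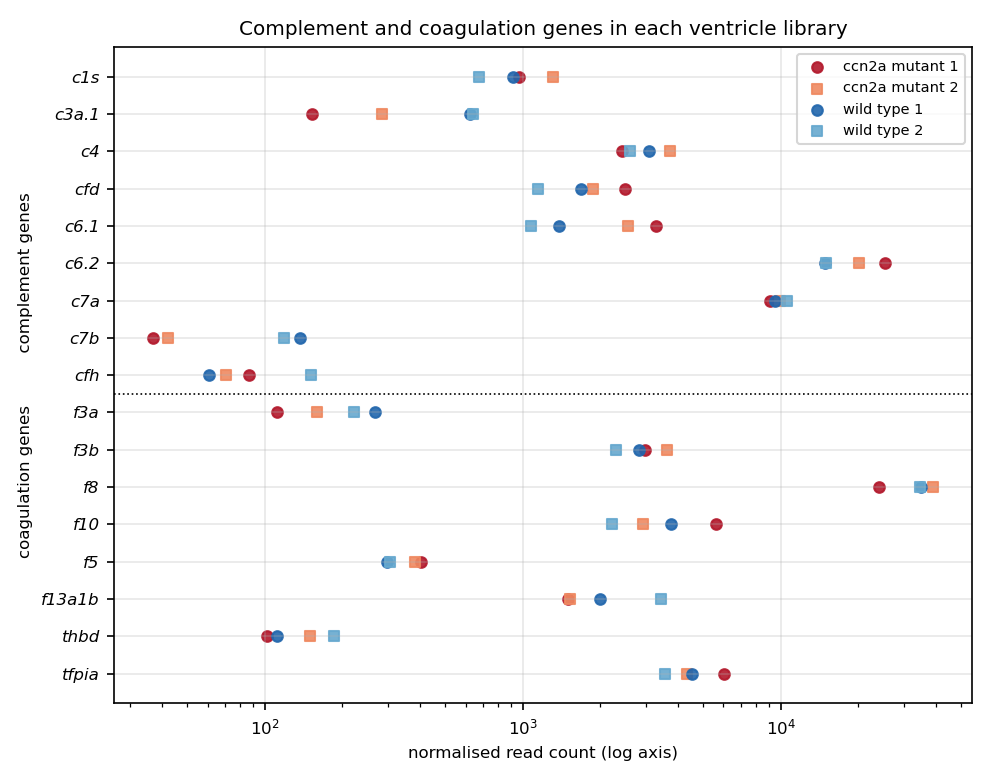
Normalised read count (log axis) of the 17 complement and coagulation rows in each of the 4 libraries, with 1 point per library and the dotted line between the cascades. The mutant points of c3a.1, c7b, f3a and f13a1b lie left of both wild-type points, and those of both c6 genes lie right of them.

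The first step of the classical pathway was represented by c1s, which encodes a protease of the C1 complex. Its normalised count was 965 and 1310 in mutants 1 and 2, and 913 and 674 in wild types 1 and 2. Both mutants were above both wild types, but mutant 1 exceeded wild type 1 only narrowly. The log2 fold change was 0.52 (SE 0.255, limma adjusted p = 0.404).

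The central component C3 is the point where the activation routes meet, and c3a.1 (ENSDARG00000012694, chromosome 1, 56130222 to 56176976) was the only C3 gene of the list with a mean above 10. It stood at 152 and 286 in the mutants and at 623 and 644 in the wild types, or 219 ± 94.8 against 634 ± 14.8 (mean ± SD, n = 2 each). The wild types were nearly equal, and both mutants were below them, mutant 1 the further. Its log2 fold change was -1.60 (SE 0.334), which is 3.03-fold lower (unadjusted p = 0.00304, limma adjusted p = 0.381). Further C3 genes lie in the same stretch of chromosome 1. Of these c3a.2 and c3a.3, 52.7 kb and 97.6 kb from c3a.1, stayed between 0 and 6, and c3a.5 and c3a.6 between 0 and 8. The c3a.4 gene, chosen after its values were seen, was expressed at 181 and 97 in the mutants and at 62 and 219 in the wild types. Its genotypes overlapped, with a log2 fold change of 0.18.

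C4, the substrate of the classical and lectin proteases, behaved otherwise. The c4 gene was at 2434 and 3738 in the mutants and at 3084 and 2607 in the wild types, so the 2 mutants enclosed both wild types. Its log2 fold change of 0.09 (SE 0.262, limma adjusted p = 0.886) changed sign when mutant 2 or wild type 2 was left out. The listed symbol c4b had no row of its own, but the table's si:dkey-8k3.2 (ENSDARG00000038424) carries c4b as its current symbol. That row, found outside the exact-match rule, was at 4395 and 4389 in the mutants and at 3530 and 4126 in the wild types, with a log2 fold change of 0.20 (SE 0.192).

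The alternative pathway amplifies C3 cleavage through factor D, a protease encoded by cfd. The cfd transcript was at 2489 and 1875 in the mutants and at 1689 and 1151 in the wild types. The groups did not overlap, although mutant 2 and wild type 1 were close. The log2 fold change was 0.63 (SE 0.266, unadjusted p = 0.0550, limma adjusted p = 0.386). Factor H, the soluble brake on the alternative pathway, is encoded by cfh, which was at 87 and 71 in the mutants and at 61 and 151 in the wild types, and the wild types enclosed both mutants (log2 fold change -0.29, SE 0.486).

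Of the listed terminal components, only the C6 and C7 genes had a row, since c8a, c8b and c9 had none. These were split, with both c6 genes on the higher side and c7b on the lower. C6 and C7 join C5b in turn to anchor the pore in the membrane. The 2 genes that the table calls c6 have the current symbols c6.1 (ENSDARG00000093052, chromosome 21, 20795472 to 20840723) and c6.2 (ENSDARG00000057113, chromosome 21, 20914888 to 20932603), and reads may be split between such copies. The c6.1 gene was at 3273 and 2564 in the mutants and at 1386 and 1072 in the wild types, or 2918 ± 501 against 1229 ± 222 (mean ± SD, n = 2 each). Each mutant was well above each wild type. The level was 2.38-fold higher in the mutant, a log2 fold change of 1.25 (SE 0.230). This gene had the smallest p of the 17 rows (unadjusted p = 0.00162, rank 52 of 16730, limma adjusted p = 0.381).

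The c6.2 gene was at 25328 and 20041 in the mutants and at 14903 and 15012 in the wild types. The wild types were nearly equal, and both mutants were above them. This was a 1.51-fold higher level, with a log2 fold change of 0.59 (SE 0.240, unadjusted p = 0.0491, limma adjusted p = 0.386). With a pseudocount of 10 or under quantile normalisation only 1 row, c6.1, stayed under an unadjusted p of 0.05 on the higher side.

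The c7 genes parted. The c7b gene (ENSDARG00000057121, chromosome 21, 20901505 to 20915291) was at 37 and 42 in the mutants and at 137 and 119 in the wild types, or 39.5 ± 3.54 against 128 ± 12.7 (mean ± SD, n = 2 each). Both mutants lay far below both wild types, and neither pair overlapped the other. Between the genotypes the log2 fold change was -1.67 (SE 0.328), which is 3.18-fold lower (unadjusted p = 0.00222, limma adjusted p = 0.381). The c7a gene on chromosome 8 was at 9091 and 9904 in the mutants and at 9501 and 10579 in the wild types. Those libraries interleaved, with a log2 fold change of -0.08 and a 95% confidence interval from -0.58 to 0.43.

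The c6 and c7b genes lie side by side on chromosome 21, with no other gene of the table wholly between them. The c7b gene ends within c6.2, which is on the opposite strand, and the 2 share 404 bases. Whether the reads were counted by strand is not known from the labels, so reads from the shared stretch cannot be assigned with certainty, and c7b is the low gene of the pair. How far reads from that stretch affect the values of c7b was not tested.

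**Figure D2:**
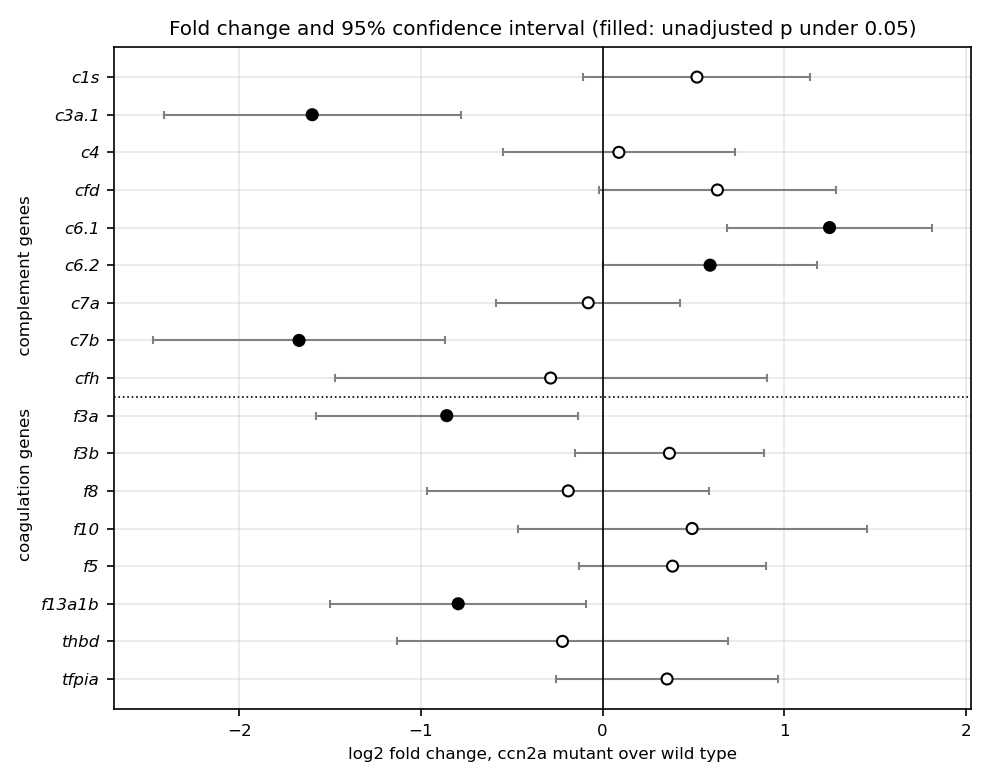
Log2 fold change of ccn2a mutant over wild type for the 17 rows, with points at the limma estimate, bars for the 95% confidence interval and filled points for an unadjusted p under 0.05. The 6 filled points are c3a.1, c6.1, c6.2, c7b, f3a and f13a1b, and the interval of c7a runs from -0.58 to 0.43.

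In coagulation, the copies of the first gene also parted. Tissue factor, the membrane receptor that starts clotting, is encoded by f3a and f3b. The f3a gene (ENSDARG00000099124, chromosome 24, 31277360 to 31290706) was at 112 and 160 in the mutants and at 267 and 222 in the wild types, or 136 ± 33.9 against 244 ± 31.8 (mean ± SD, n = 2 each). Both mutants were below both wild types. This was a 1.81-fold lower level, with a log2 fold change of -0.86 (SE 0.295, unadjusted p = 0.0270, limma adjusted p = 0.381).

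The f3b gene was at 2987 and 3619 in the mutants and at 2828 and 2297 in the wild types. Here both mutants were above both wild types, mutant 1 by little. The log2 fold change was 0.37 (SE 0.213, limma adjusted p = 0.440).

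Paralogs were compared directly through the log2 ratio of the copies in each library. The ratio of f3a to f3b was -4.72 and -4.49 in the mutants and -3.40 and -3.37 in the wild types, a difference of -1.23. The ratio of c7b to c7a differed by -1.59 and that of c6.1 to c6.2 by 0.66. At all 3 pairs the genotypes did not overlap. The 52.3% of single genes that did not overlap is a share of another measure, and no share over ratios of other gene pairs was computed. Each pair had an exact permutation p of 0.333 (2-sided), 0.333 after adjustment over the 3 pairs. That is the smallest p that 2 libraries against 2 allow, so the differences could not pass in this design. The ratios reuse the values of rows that are also given singly, so they add no separate evidence.

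Of the tested factors on the way to thrombin, f8, f10 and f5, none reached an unadjusted p of 0.05. Factor VIII, the cofactor for activation of factor X, is encoded by f8, which was at 24078 and 38957 in the mutants and at 35121 and 34737 in the wild types. The mutants enclosed the wild types, and the log2 fold change of -0.19 (SE 0.318) became 0.16 without mutant 1. Factor X is encoded by f10, which was at 5622 and 2928 in the mutants and at 3756 and 2215 in the wild types. For f10 the log2 fold change of 0.49 (SE 0.392, limma adjusted p = 0.548) ran from 0.02 without mutant 1 to 0.96 without mutant 2. Factor V, the cofactor of factor X, is encoded by f5, at 405 and 383 in the mutants and at 298 and 305 in the wild types. The libraries of a genotype were close together, the genotypes did not overlap, and the log2 fold change was 0.38 (SE 0.211, limma adjusted p = 0.424).

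Clot crosslinking was represented by f13a1b, which encodes a catalytic subunit of factor XIII. It was at 1503 and 1521 in the mutants and at 1996 and 3449 in the wild types. The mutants were nearly equal and below both wild types, of which wild type 2 was the further. This was a 1.73-fold lower level, with a log2 fold change of -0.79 (SE 0.288, unadjusted p = 0.0328, limma adjusted p = 0.381). Without wild type 2 it was -0.40.

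Of the anticoagulant genes, tfpia encodes the inhibitor of the tissue factor complex. It was at 6046 and 4346 in the mutants and at 4530 and 3549 in the wild types, with overlapping groups and a log2 fold change of 0.35 (SE 0.250, limma adjusted p = 0.506). Thrombomodulin, the endothelial receptor that turns thrombin towards protein C, is encoded by thbd. It was at 102 and 150 in the mutants and at 112 and 186 in the wild types, and it shares bases with tlr5b on the same strand. For thbd the log2 fold change of -0.22 (SE 0.373) changed sign when mutant 1 or wild type 2 was left out.

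The direction of single genes was followed with each library left out in turn. Each such fit leaves 1 library in a genotype, and the fits share libraries. A p kept across them is therefore no separate support. The c6.1 gene stayed between 1.06 and 1.43 and c7b between -1.77 and -1.57, and both kept an unadjusted p under 0.05 in each of those 4 fits. For c3a.1 the range was -2.05 to -1.14, with such a p in 2 of the 4 fits. The c6.2, f3a and f13a1b genes had it in 1 of the 4. The count of rows under that p on the lower side was 2 without mutant 1, 3 without mutant 2, 2 without wild type 1 and 1 without wild type 2. On the higher side it was 1 without mutant 1 and 1 without wild type 2. The number over all genes also dropped, to 648 without mutant 1 and 448 without wild type 2.

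**Figure D3:**
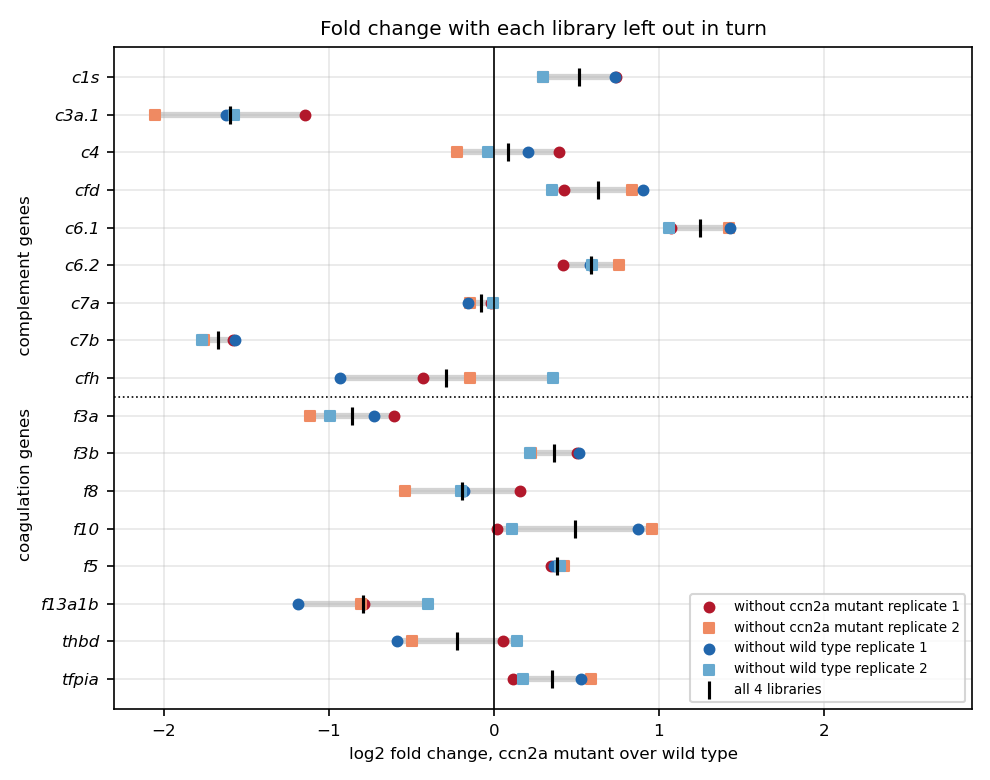
Log2 fold change of each of the 17 rows with all 4 libraries (black bar) and with each library left out (coloured points, grey line for their range). The c6.1 points stay between 1.06 and 1.43 and the c7b points between -1.77 and -1.57, while those of c4, cfh, f8 and thbd lie on both sides of 0.

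The remaining 11 rows were at trace level in every library. Fibrinogen, the precursor of the clot, was represented by fga at 23 and 1 in the mutants and at 3 and 5 in the wild types. Its partner chains were as low, with fgb at 11 and 4 against 0 and 2 and fgg at 11 and 0 against 2 and 0. Mutant 1 held the highest value of each fibrinogen chain. Prothrombin (f2) was at 8 and 6 against 4 and 2, factor VII (f7) at 10 and 10 against 12 and 4, and C5 (c5) at 5 and 7 against 1 and 0. The lectin-pathway protease gene masp1, the C1 inhibitor gene serping1 and cfhl1 overlapped between genotypes, at 17 or less. Such values are too low for a fold change.

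Hepatocyte markers below a mean of 10 were highest in mutant 1, as the fibrinogen chains were. Other trace rows of the cascades were divided. Mutant 1 was also highest for c3a.2, c3a.3 and f2, at 6, 6 and 8. In contrast, f7 and masp1 were highest in wild type 1, c5 in mutant 2, and serping1 and cfhl1 in wild type 2. Of 14 rows matched to 18 listed markers, 8 stayed below a mean of 10, and those 8 summed to 99 in mutant 1, 22 in mutant 2, 12 in wild type 1 and 17 in wild type 2. The 11 trace rows of the cascades summed to 95, 42, 43 and 37 in the same order. The liver fatty acid binding protein gene fabp10a, not among the 2 most abundant markers, was at 19, 1, 1 and 3. The more abundant marker hp was at 400, 405, 398 and 370. Markers with a mean above 10 also included apoa1b at 48, 0, 4 and 2 and apoa2 at 37, 5, 1 and 3. The cp gene, above that mean too, was at 19, 14, 7 and 11. Without mutant 1, which leaves 1 mutant library, the log2 fold change was 1.07 for c6.1, -1.14 for c3a.1 and -1.58 for c7b. In the same fit c6.2 was at 0.42, f3a at -0.60 and f13a1b at -0.79. There cfd was at 0.43 and f10 at 0.02. The part of the hepatocyte marker transcripts in the cascade rows was not tested. Over the whole hepatocyte list, sums were 21070 and 10094 in the mutants and 10766 and 12098 in the wild types, nearly all of it rbp4 and tfa. The rbp4 gene was at 15538 and 5298 against 5031 and 3599, and tfa at 4929 and 4350 against 5313 and 8096.

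**Figure D4:**
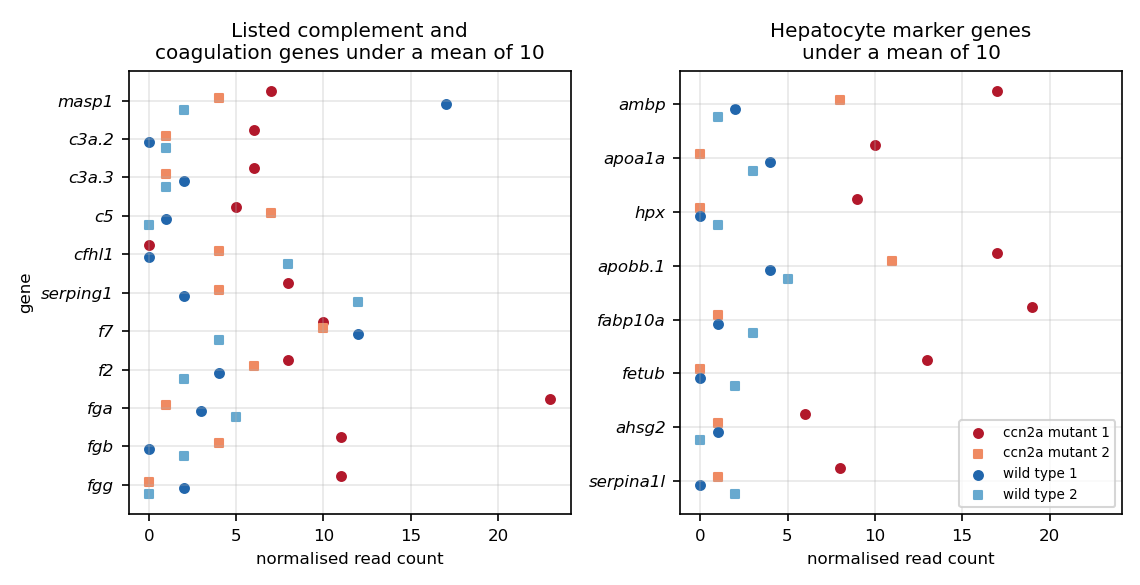
Normalised read count (linear axis) of the 11 listed complement and coagulation rows under a mean of 10 (left) and of the 8 hepatocyte marker rows under that mean (right), with 1 point per library. Mutant 1 holds the highest value of fga at 23 and of fabp10a at 19, and the other libraries stay at 5 or less for both genes. The highest values of f7 and masp1 are in wild type 1.

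Other genes of the cascades came from a list of 57 symbols, of which 33 were in the table and 26 had a mean of 10 or more. Of these 26, 12 lay above 0 and 13 below it, and their median log2 fold change was -0.01. An unadjusted p under 0.05 was reached by 3 on the higher side, where 5.89% of all genes did so, and by 2 on the lower side, where 6.93% did so, and none passed after adjustment. The 6 genes with the smallest p were 3 lower and 3 higher ones. The factor B-like gene cfbl had 652 and 721 in the mutants and 1312 and 1393 in the wild types, a log2 fold change of -0.98 (SE 0.188, unadjusted p = 0.00200). The C1q chain gene c1qb had 2435 and 2755 against 3667 and 4490, a log2 fold change of -0.65 (limma unadjusted p = 0.0192). Its partner chain genes changed less. The log2 fold change was -0.12 for c1qa, whose genotypes overlapped, and -0.23 for c1qc, whose genotypes did not. The lman1 gene, a cargo receptor for factors V and VIII in mammals, had 622 and 733 against 833 and 1136, with an unadjusted p of 0.0666. On the higher side, the protein Z gene proza had 3150 and 2413 against 1719 and 1273. The protein Z-dependent inhibitor gene serpina10a had 3677 and 3020 against 2320 and 2126. The protein S gene pros1 had 3193 and 1752 against 1288 and 1409. At each of these 3 genes both mutants were above both wild types. Of the other anticoagulant genes, named after their values were seen, tfpi2 at 1258 and 1003 against 1287 and 1009 and serpinc1 (antithrombin) at 79 and 53 against 60 and 11 overlapped, as tfpia and thbd did.

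Markers of cells that the ventricle holds were read in the same libraries. No marker row passed after adjustment, and in bulk RNA fewer cells of a type and less RNA per cell cannot be told apart. Of all genes tested, 5.89% were higher in the mutant at an unadjusted p under 0.05. Endothelial markers were higher in the mutant at 7 of 7 rows, 3 of them at such a p. Their summed levels were 23735 and 23341 in the mutants against 17959 and 15869 in the wild types. Of these markers, cdh5 was at 8274 and 8718 against 6947 and 5546, and kdrl at 3881 and 4935 against 3782 and 3620. Cardiomyocyte markers were higher at 7 of 8, with no row at such a p and with sums of 875845 and 726067 against 604816 and 417864, led by myl7 and by cmlc1 at 176344 and 133491 against 113939 and 88166. Erythrocyte markers were higher at 7 of 7, 5 of them at such a p, with sums of 222677 and 203824 against 136739 and 117016, led by hbaa1 and hbba1. The values of all genes also summed higher in the mutants, at 21468746 and 19136642 against 18059246 and 16310160, so the list sums share this excess. The list sums lay on the same side as c1s, cfd, c6.1, c6.2, f3b and f5, the 6 rows whose mutants were above both wild types. Their part in those results was not tested. Wild type 2 had the lowest sum of each of these 3 lists and over all genes. Its mitochondrial genome transcripts made up 7.66% of the values, against 13.4% to 14.7% in the other libraries. Without wild type 2 the log2 fold change was 0.35 for cfd and -0.40 for f13a1b. In the same fit c3a.1 was at -1.57, c7b at -1.77, f3a at -0.99, c6.1 at 1.06 and c6.2 at 0.60.

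Macrophage markers were lower in the mutant at 6 of 7 rows, 2 of them at an unadjusted p under 0.05, where 6.93% of all genes were. Their sums were 14571 and 16916 against 18684 and 24455. Their most abundant genes were lgmn at 7188 and 9059 against 8826 and 14818 and marco at 2785 and 2996 against 3624 and 3514. The macrophage sums lay on the same side as c3a.1, c7b, f3a and f13a1b. Their part in those results was not tested. Neutrophil markers were mixed, lower at 5 of 8 and higher at 3. At such a p were 1 higher and 1 lower row, where 5.89% and 6.93% of all genes were. Their sums, at 2463 and 2427 against 2558 and 2813, were mostly mmp9. The most abundant were mmp9 at 1780 and 1390 against 1568 and 1918 and mmp13a (ENSDARG00000114451) at 177 and 353 against 280 and 188, both overlapping. The other mmp13a row (ENSDARG00000012395) was at 26 and 32 against 37 and 144, with both mutants below both wild types. Thrombocyte markers were higher at 6 of 6, 1 of them at such a p, where 5.89% of all genes were on that side. Their sums were 10625 and 5403 against 3852 and 4764, with thbs1b and itga2b the most abundant. These sums lay on the same side as the sums over all genes and as c1s, cfd, c6.1, c6.2, f3b and f5. The part of the thrombocyte sums there was not tested. Epicardial and fibroblast markers, led by col1a2 and postnb, had no row at such a p and overlapped in sum, at 151463 and 79363 against 94930 and 112264. No row of these 7 marker lists was at 0 in any library. Exocrine pancreas markers, of cells outside the ventricle, were divided. Of these, ctrb1 at 98 and 82 against 704 and 1179 differed from ela2 at 50 and 29 against 16 and 20. Both mutants were also above both wild types at cel.2, at 7 and 4 against 2 and 1. The prss1 genotypes overlapped, at 8 and 6 against 4 and 9. The exocrine pancreas sums, at 163 and 121 against 726 and 1209, were lower in the mutants through ctrb1 alone. They thus describe that gene and not the list.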

How the data were processed

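Messenger RNA was sequenced from 2 ccn2a-/- and 2 wild-type ventricle libraries. STAR 2.4.0a, Subread's featureCounts 1.4.5-p1, DESeq2 1.6.2 and the build GRCz10 are listed in the submitters' processing notes, with no settings. The largest coordinate, 78048911 on chromosome 4, lies beyond that chromosome's end in GRCz10, so the build of the printed coordinates is uncertain. The deposited values are a whole-number score, read here as a count divided by a library factor and rounded by the authors, since low values skip whole numbers at a regular spacing in 3 libraries. In wild type 2 no number is skipped, but some occur more often than their neighbours at a regular spacing. A fit to how often each value occurs gave factors of 0.874, 0.946, 0.952 and 1.32 for mutants 1 and 2 and wild types 1 and 2. Value times factor gave 18.8, 18.1, 17.2 and 21.5 M reads. Whole reads could not be recovered in wild type 2, so no count test was run.

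Genes with a mean of 10 or more were fitted with limma 3.58.1 (limma-trend, R 4.3.3) for genotype on log2(value + 1), with Benjamini-Hochberg adjustment of 2-sided p-values. Residual degrees of freedom were 2 for each gene, and the moderated prior gave 4.01 more. The scripts were tested on simulated data. Alternatives were the filter, the pseudocount, quantile normalisation, voom on approximate reads, a replicate block and each library left out. Data were handled with the R package data.table (1.17.8), pandas 2.3.3 and numpy 2.4.6, and plotted with matplotlib 3.10.9 in Python 3.11.15. Current symbols came from an ID-to-symbol list, which matched 28 of 28 rows. The members and lists were chosen with earlier results of these data known. Every listed symbol with a row is reported, by values alone or in ranges below a mean of 10. Of the further cascade genes the 6 with the smallest p are named, and of each marker list the 2 most abundant. Some genes, such as c3a.4, tfpi2, serpinc1, fabp10a and mpeg1.1, are named beyond that rule. Of the 17 rows, 6 share bases with another gene of the table.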

Additional observations from a re-analysis of the deposited data

How the results depend on the processing

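Of the 17 rows, 13 kept their direction under all 11 alternatives, and no row passed the adjusted threshold under any of them. The exceptions were c4, at -0.038 under quantile normalisation and from -0.22 to 0.40 with a library left out (below 0 without mutant 2 or wild type 2), and thbd, from -0.58 to 0.14 (above 0 without mutant 1, at 0.055, or wild type 2). The others were f8, from -0.54 to 0.16 (above 0 without mutant 1), and cfh, from -0.93 to 0.36 (above 0 without wild type 2). All 17 had a mean of 50 or more, so that filter left them unchanged. The median log2 fold change of the rows, 0.09, was -0.038 under quantile normalisation and 0.38 with no filter, where the 11 trace rows enter. It ran from -0.14 to 0.21 with a library left out. The count of rows at an unadjusted p under 0.05 on the higher side was 1 with a pseudocount of 10 and 1 under quantile normalisation, and 1 to 2 with a library left out, while the lower side gave 1 to 3. Over all genes that count ran from 448 to 2597 with a library left out. With the replicate block it was 2655, with 3 rows on the higher and 4 on the lower side. The row added there was cfd, whose SE was 0.202 with the block and 0.266 without. The SE of f10 was 0.201 with the block and 0.392 without. Over all genes, same-numbered libraries did not deviate together (r = 0.0041 across genes), and the numbers were not taken as pairs. That r cannot exclude a shared deviation at single rows. The cause of these shifts was not tested. With 2 libraries per genotype, an exact test cannot go below 0.333, and a gene that misses the threshold is not thereby shown to be unchanged.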
